A study of Mus musculus with 12 samples.

Results

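Kinesins, cytoplasmic dynein and dynactin are the machinery that moves cargo along microtubules, and their messenger RNAs were examined here for crosslinking to the RNA-binding proteins Rbm38 and Puf60. The set comprised every protein-coding mouse gene named as a kinesin heavy chain (Kif), a kinesin light chain (Klc), a dynein subunit (Dync, Dynl) or a dynactin subunit (Dctn), which gave 68 of 21900 protein-coding genes. Kinesins are microtubule motors, most of which walk towards the plus end of the microtubule. Cytoplasmic dynein 1 walks towards the minus end and depends on dynactin for long runs. In neurons these motors carry vesicles, mitochondria and messenger RNA along axons and dendrites, and in dividing cells several kinesins build and move the spindle.

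The measurement was iCLIP, in which ultraviolet light crosslinks protein to RNA in living cells and the protein is then precipitated with its RNA fragments. The cells were N2A, a mouse neuroblastoma line, carrying a Flag-tagged protein at a Flp-in site under doxycycline control. Rbm38 is an RNA-recognition-motif protein known for effects on splicing and on messenger RNA stability. Puf60 is a splicing factor known for binding pyrimidine-rich sequence upstream of 3′ splice sites. The 12 libraries formed 6 groups: Rbm38 CLIP and its input, CLIP of Puf60 with its exon 5 and its input, and CLIP of Puf60 without exon 5 and its input. Each protein had 3 CLIP libraries, made with anti-Flag M2 antibody, and 1 size-matched input, which was lysate run and cut from the same gel range without precipitation. All cells received 1 µg/ml doxycycline and 150 mJ/cm2 of ultraviolet light. Induction lasted 48 h for CLIP of Puf60 with exon 5 and 24 h for the other groups, its own input included, so exon 5 and induction time cannot be told apart. The tagged protein was added to the cells' own, and the labels do not say whether each line was 1 clone or whether replicates were separate cultures.

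The authors' deposited tables hold 1 table per protein, giving for each cluster of reads its position, the log2 fold of the CLIP libraries against input, and p-values before and after adjustment. They hold no value per library, so replicate spread cannot be given, depth is unknown, and each comparison below is a description with no test of its own. Below, enriched clusters are those whose adjusted p, as deposited, is under 0.05. At some clusters the adjusted p is 1 beside a very small p, for a reason not given in the sources used here. Adjusting the deposited p by Benjamini-Hochberg over each table gives 181 enriched motor gene clusters for Rbm38, 90 for Puf60 with exon 5 and 93 for Puf60 without exon 5, against 158, 80 and 82 by the deposited adjustment. The fold was read as CLIP over input, a direction the column name alone does not give. Of the enriched clusters in any table, 0 had a log2 fold below 0. The deposited p was near its upper limit at folds well below 0, such as 0.998 at -0.95 in Dync1h1 for Puf60 with exon 5. The count of 0 thus follows from how p was computed and does not show the direction. A cluster was given to a motor gene when its centre lay in the gene body on the gene's strand, and distances run from the cluster's centre to the gene's annotated 3′ end. The number of clusters in a gene also moves with its length and RNA level, which the tables do not separate. Among the neuroblastoma and neuronal marker genes given here, Stmn2, Tubb3 and Hand2 had clusters in all 3 tables, Dbh, Gata3 and Th had none, and Nefl and Nefm could not be given a strand.

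Clusters were listed in 39 of the 68 motor genes, and 36 of these had at least 1 enriched cluster. The Rbm38 table listed 35 motor genes and 339 clusters, of which 158 in 30 genes were enriched. The table of Puf60 with exon 5 listed 33 genes and 188 clusters, of which 80 in 29 genes were enriched. The table of Puf60 without exon 5 also listed 33 genes, with 214 clusters, of which 82 in 25 genes were enriched. The enriched share of clusters was thus 46.6%, 42.6% and 38.3% in that order of tables, beside 51.9%, 39.5% and 36.5% over all protein-coding genes, and 50.9%, 39.1% and 36.1% over all clusters. These shares lay near the background. Of the motor genes listed, 85.7% had an enriched cluster for Rbm38, 87.9% for Puf60 with exon 5 and 75.8% for Puf60 without exon 5, where all listed protein-coding genes gave 83.9%, 64.7% and 63%. Enriched clusters had median log2 folds of 2.40, 3.0 and 2.97 in motor genes, and of 2.37, 2.85 and 2.72 in all protein-coding genes.

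**Figure D1:**
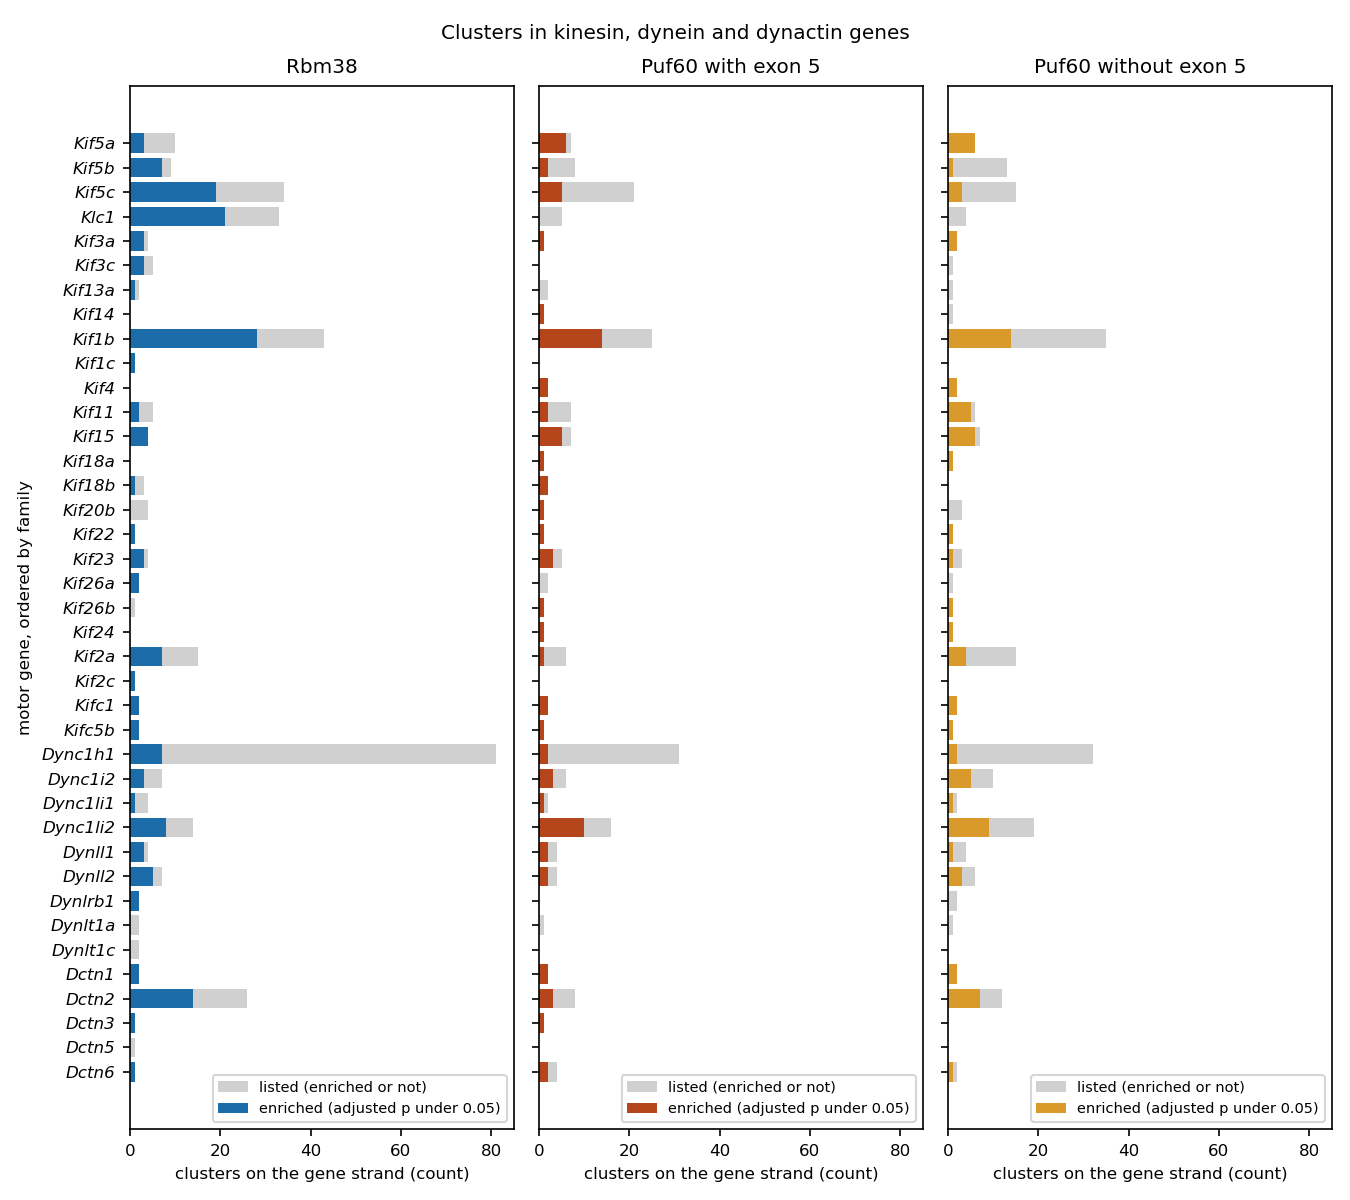
Clusters on the gene strand in each of the 39 listed motor genes, grouped by family from the kinesins at the top to dynactin at the bottom, for Rbm38, Puf60 with exon 5 and Puf60 without exon 5. Grey bars count listed clusters and coloured bars the enriched ones among them. Kif1b has the most enriched clusters in each panel, and Dync1h1 has 81 listed clusters for Rbm38 of which 7 are enriched.

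Enriched clusters of all 3 proteins were found in 21 motor genes, including both dynein light intermediate chains, the 3 Kif5 genes and the mitotic kinesins Kif11, Kif15, Kif22 and Kif23. Both Puf60 isoforms had enriched clusters in 25 motor genes. Rbm38 alone had them in 7 genes, Dynlrb1, Kif13a, Kif1c, Kif26a, Kif2c, Kif3c and Klc1. Puf60 alone, in either isoform, had them in 6 genes, Kif14, Kif18a, Kif20b, Kif24, Kif26b and Kif4. The same split over all protein-coding genes is not given here, so whether it is particular to motor genes cannot be said. The Kif26b clusters lie inside a small nuclear RNA gene, and the Kif24 clusters lie opposite stronger ones on the other strand. No cluster was listed in 29 motor genes, among them the neuronal vesicle kinesin Kif1a, the dendritic kinesin Kif17, the Hedgehog pathway kinesin Kif7, both dynein 2 genes of the set and the light chain genes Klc2, Klc3 and Klc4. For Klc2 and 10 other genes no strand could be assigned, and 3 of these 11 held 6 clusters in all, none of them enriched.

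Kinesin-1 carries vesicles and mitochondria outward along axons. Its heavy chains are Kif5a, Kif5b and Kif5c, and its light chains, the Klc proteins, bind cargo. The group had 50 enriched of 86 listed clusters for Rbm38, 13 of 41 for Puf60 with exon 5 and 10 of 38 for Puf60 without exon 5. The light chain gene Klc1 stood apart between the proteins. The authors' deposited tables list 33 clusters in Klc1 for Rbm38, 21 of them enriched, against 5 for Puf60 with exon 5 and 4 for Puf60 without exon 5, none of either enriched. Klc1 had the most clusters among motor genes with none enriched in both Puf60 tables.

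Rbm38 clusters in Klc1 were packed into one part of the gene. Between 12 and 18.2 kb before the 3′ end of Klc1, bounds drawn after the values were seen, 18 of 22 Rbm38 clusters were enriched, with log2 folds of 1.48 to 4.74 per the authors' deposited table. The strongest lay at chr12:111794751-111794950 on the plus strand, 12994 nt from the 3′ end (mm10). In the same stretch the authors' deposited tables list 3 clusters for each Puf60 isoform, with log2 folds of -0.64 to 0.01 with exon 5 and -0.79 to 0.46 without it. Over all 22 listed Rbm38 clusters of the stretch the range was 0.45 to 4.74, so the ranges of Rbm38 and of Puf60 without exon 5 touched at the low end.

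Kif5b, the heavy chain expressed in most cell types, differed from Klc1 in that its Rbm38 clusters lay at the very end of the gene. In the last 2.5 kb of Kif5b the authors' deposited tables give 7 enriched of 9 Rbm38 clusters, with enriched log2 folds of 1.49 to 4.66. The 6 clusters of Puf60 with exon 5 in this stretch lay between -0.95 and 0.58 per the authors' deposited table, and the 10 of Puf60 without exon 5 between -1.69 and 0.71. None of these 16 was enriched. The stretch, whose bound was drawn after the values were seen, was covered in all 3 tables. Of the clusters centred in it, only Rbm38 ones passed the threshold. The strongest Rbm38 cluster of Kif5b, at chr18:6201336-6201385 on the minus strand, was 355 nt from the 3′ end. Just before the stretch, 2580 nt from the 3′ end, the authors' deposited tables list a Kif5b cluster that was enriched for both Puf60 isoforms, at log2 folds of 0.90 with exon 5 and 0.51 without it. This cluster, at chr18:6203536-6203635, overlaps an enriched Rbm38 cluster counted in the stretch, at chr18:6203336-6203585 and 4.01 per the authors' deposited table. Puf60 with exon 5 had 1 more enriched Kif5b cluster, at 1.39 and 15805 nt from the 3′ end.

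Kif5c, a heavy chain enriched in neurons, had 34 Rbm38 clusters of which 19 were enriched, 21 clusters of Puf60 with exon 5 of which 5 were, and 15 of Puf60 without exon 5 of which 3 were. In the last 3.6 kb of Kif5c, 11 of 12 Rbm38 clusters were enriched, up to a log2 fold of 4.17 per the authors' deposited table, against 1 of 13 for Puf60 with exon 5 and 0 of 11 for Puf60 without exon 5. Just outside these bounds, drawn after the values were seen, Puf60 without exon 5 had an enriched Kif5c cluster at chr2:49771101-49771150, 3653 nt from the 3′ end, at 2.60 per the authors' deposited table. The single Puf60 cluster with exon 5, at chr2:49772701-49772750 and a log2 fold of 1.41, lay inside the strongest Rbm38 cluster, at chr2:49772601-49772850. A second run of Rbm38 clusters in Kif5c lay 120 to 155 kb before the 3′ end, near the gene's start, with 7 of 16 enriched. The deposited adjusted p did not always follow the p-value: a Kif5c cluster of Puf60 with exon 5 had a log2 fold of 2.18, a p of 1.9e-20 and an adjusted p of 1 per the authors' deposited table. This cluster, 3578 nt from the 3′ end, lies in the 3.6 kb stretch and is counted there as not enriched. It overlaps an enriched Rbm38 cluster of Kif5c at 3.15 per the authors' deposited table.

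Kif5a, the neuronal heavy chain, had the reverse balance. The authors' deposited tables give 6 enriched of 7 clusters for Puf60 with exon 5 and 6 of 6 for Puf60 without exon 5, against 3 of 10 for Rbm38. Matched Puf60 clusters in Kif5a had nearly the same log2 folds in the authors' deposited tables, 3.81 with exon 5 and 3.41 without at chr10:127231586-127231635, and 3.79 and 3.76 at chr10:127237436-127237485. The 3 enriched Rbm38 clusters of Kif5a, at 2.35, 2.91 and 2.98, lay 2515 to 3890 nt from the 3′ end. The strongest of them overlaps an enriched Kif5a cluster of Puf60 with exon 5, at 2.84 per the authors' deposited table. Rbm38 clusters of Kif5a at 1.06 and 1.04 did not pass the deposited adjusted p, beside deposited p-values of 1.9e-05 and 3.8e-07.

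**Figure D2:**
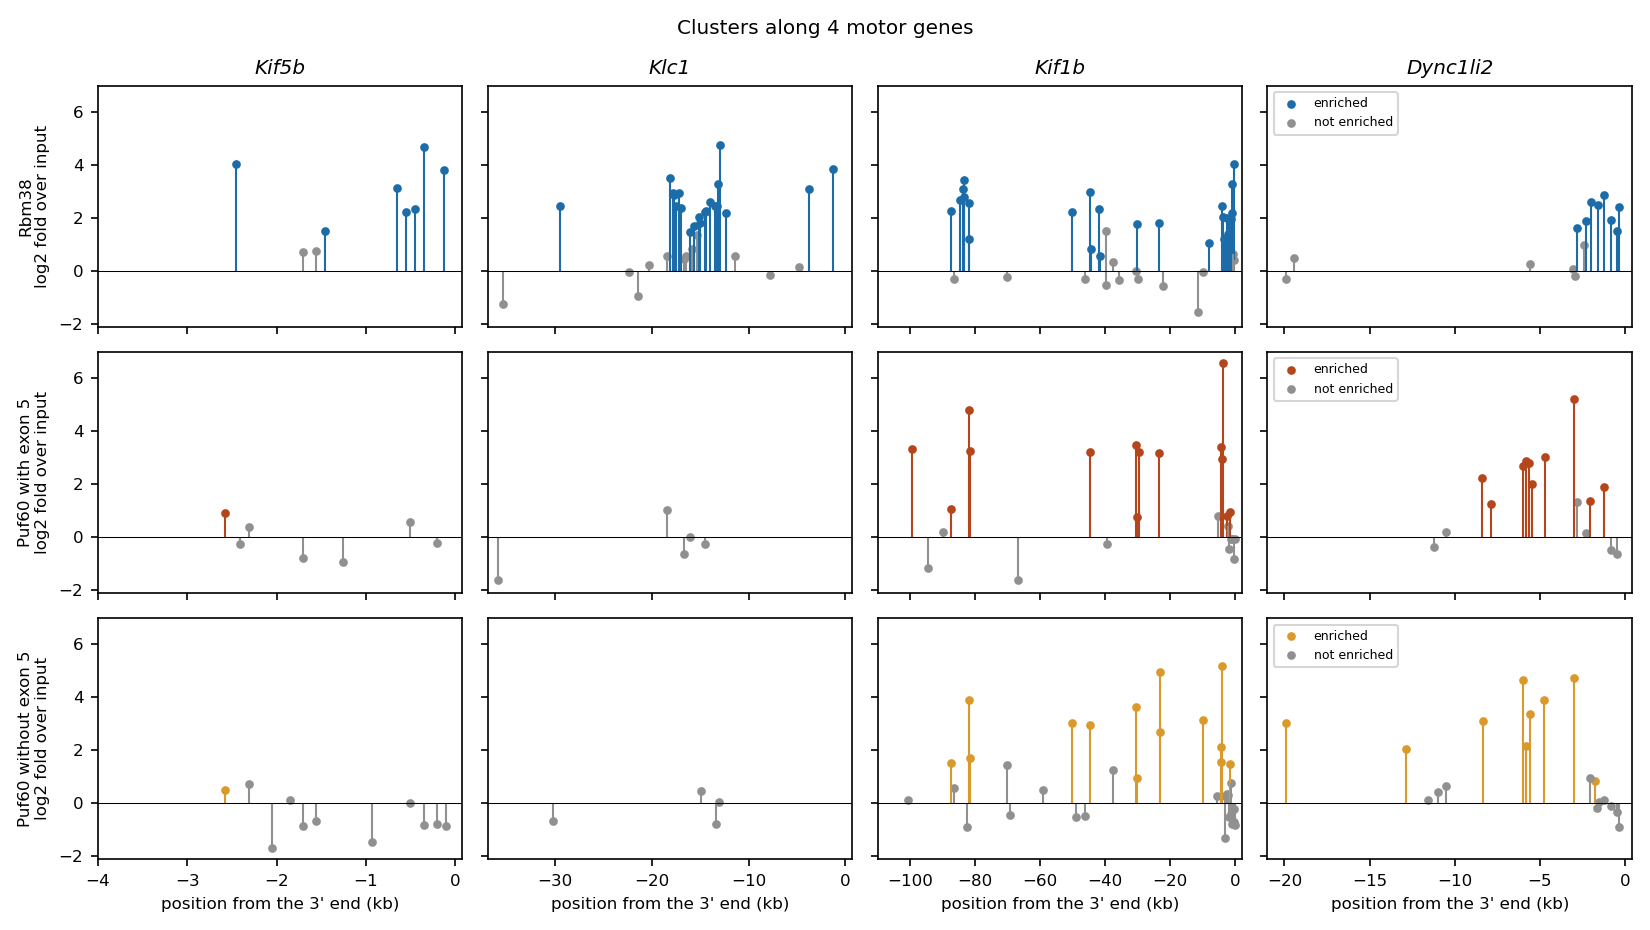
Clusters along Kif5b, Klc1, Kif1b and Dync1li2, drawn by distance from the 3′ end in kb (horizontal; 0 is the 3′ end, and clusters beyond the last 4, 37, 110 and 21 kb are not shown) and log2 fold of CLIP over input (vertical), with Rbm38 in the top row, then Puf60 with and without exon 5. Coloured points are enriched clusters and grey points are not. Rbm38 clusters crowd the last 2.5 kb of Kif5b and the stretch of Klc1 between 12 and 18.2 kb, and no Puf60 cluster centred in them is enriched. An enriched Puf60 cluster centred just upstream of the Kif5b stretch overlaps an Rbm38 cluster counted in it. In Dync1li2 the enriched Puf60 clusters lie mostly upstream of the Rbm38 ones.

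Kinesin-2 drives transport into cilia and of axonal vesicles, as heterodimers of Kif3a with Kif3b or Kif3c. Kif3c held the highest Rbm38 fold of any motor gene in the authors' deposited table, a log2 fold of 5.30 at chr12:3402901-3403000 on the plus strand, 3544 nt from its 3′ end. The 2 other enriched Rbm38 clusters of Kif3c had log2 folds of 3.97 and 3.62 per the authors' deposited table, the second also inside the gene 1110002L01Rik. Kif3c had no cluster of Puf60 with exon 5, and its 1 cluster of Puf60 without exon 5 was not enriched. Kif3a was enriched with all 3 proteins at different places. Its strongest Rbm38 cluster, at a log2 fold of 3.80 per the authors' deposited table, was 1673 nt from the 3′ end of Kif3a. A Kif3a cluster 13623 nt from the 3′ end was enriched at 3.17 with exon 5 and 2.98 without it in the authors' deposited tables. Kif3b had no listed cluster.

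Kinesin-3 motors carry synaptic vesicle precursors and dense-core vesicles, and Kif1b in this family also moves mitochondria. Kif1b, which spans 131455 nt, had the most enriched clusters of any motor gene in every table, 28 of 43 for Rbm38, 14 of 25 for Puf60 with exon 5 and 14 of 35 for Puf60 without exon 5. The highest log2 fold of Puf60 with exon 5 in any motor gene was 6.55 per the authors' deposited table, in Kif1b at chr4:149180036-149180285 on the minus strand, 3841 nt from the 3′ end. The Kif1b cluster of Puf60 without exon 5 over the same bases stood at 5.17 per the authors' deposited table. Rbm38 was enriched there too, more weakly, with 2 Kif1b clusters at 2.02 and 2.45 per the authors' deposited table.

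Clusters were matched between proteins when each was the other's largest overlap. Enriched clusters of all 3 proteins that overlap without being so matched, as in Kif5b above and elsewhere in Kif1b, are not counted here. Of the 10 places in all motor genes where matched clusters of all 3 proteins were enriched, 5 lay in Kif1b. Of these 5, those 1616 and 3841 nt from the 3′ end lay in the last 4.2 kb of Kif1b, a bound drawn after the values were seen. In that stretch 13 of 15 Rbm38 clusters were enriched, against 4 of 10 for Puf60 with exon 5 and 2 of 13 for Puf60 without exon 5. Just upstream of the bound Puf60 without exon 5 had 2 more enriched Kif1b clusters, at 1.57 and 2.10 per the authors' deposited table, over bases of a counted Rbm38 cluster. At the very end of Kif1b the authors' deposited tables give overlapping clusters, with log2 folds of 4.04 for Rbm38, centred 166 nt from the 3′ end, and of -0.05 for Puf60 with exon 5 and -0.82 for Puf60 without exon 5, both centred 91 nt from it. Far upstream, 81 to 88 kb before the 3′ end of Kif1b, the 3 proteins again had enriched clusters, with 7 of 8, 3 of 3 and 3 of 5.

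The other kinesin-3 genes had few clusters. Kif1c had 1 cluster, of Rbm38, enriched at a log2 fold of 2.10 per the authors' deposited table. Kif13a had an enriched Rbm38 cluster at 2.75 per the authors' deposited table, 248 nt from its 3′ end. Its other cluster common to all 3 tables lay in the small nucleolar RNA gene Gm24620, inside Kif13a, with log2 folds of -4.16, -3.07 and -3.61 for Rbm38, Puf60 with exon 5 and Puf60 without exon 5 per the authors' deposited tables. Kif14, which acts in the last step of cell division, had 1 cluster in both Puf60 tables at the same position. The authors' deposited tables give it a log2 fold of 3.0 with exon 5 and 3.05 without it, but an adjusted p of 9.3e-33 with exon 5 and 1 without it. The unadjusted p of this Kif14 cluster was 1.4e-33 with exon 5 and 1.3e-32 without it per the authors' deposited tables, so fold and p were alike and the deposited adjusted p was not.

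Several kinesin families build the spindle or complete cytokinesis. The 10 genes of the kinesin-5, kinesin-6, kinesin-8, kinesin-10 and kinesin-12 families had 11 enriched of 21 clusters for Rbm38, 15 of 24 for Puf60 with exon 5 and 14 of 21 for Puf60 without exon 5, where 51.9%, 39.5% and 36.5% of clusters were enriched over all protein-coding genes. Mitotic members of other families, such as Kif14, Kif4, Kif2c and Kifc1, are described with those families or beside them. Kif15, which helps to hold the bipolar spindle, had 4 of 4, 5 of 7 and 6 of 7. Its enriched clusters of Puf60 fell in 2 places on chromosome 9, near 27383 and 4008 nt before the 3′ end. At the upstream place the authors' deposited tables give Kif15 4.60 with exon 5 and 3.23 without it, and at the downstream place 4.0 and 3.90. The Rbm38 clusters of Kif15 lay elsewhere, at log2 folds of 0.93 to 2.62 per the authors' deposited table.

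Kif11, the motor that pushes spindle poles apart, had its strongest Puf60 cluster and its strongest Rbm38 cluster at separate sites. Puf60 without exon 5 also had an enriched Kif11 cluster near the Rbm38 one, at chr19:37420201-37420250 and 3.53 per the authors' deposited table. The strongest Puf60 cluster of Kif11, at chr19:37406951-37407050 on the plus strand, had log2 folds of 4.29 with exon 5 and 4.93 without it in the authors' deposited tables, with no Rbm38 cluster over it. The strongest Rbm38 cluster of Kif11, at chr19:37420501-37420650 and 1288 nt from the 3′ end, had a log2 fold of 4.31, against 0.05 for Puf60 with exon 5, which was not enriched, and 0.82 for Puf60 without exon 5, which was, in the authors' deposited tables. Kif23, a motor of the central spindle, had Rbm38 clusters at 2.93 and 2.94 within 233 nt of its 3′ end and a Puf60 cluster 6983 nt away at 2.87 with exon 5 and 2.42 without it, in the authors' deposited tables. Another enriched Rbm38 cluster of Kif23 lay near the gene's start, at chr9:61945336-61945385 and 2.65 per the authors' deposited table. Kif22, which moves chromosomes along the spindle, had an Rbm38 cluster 31 nt from its 3′ end at 2.86 and a Puf60 cluster 5331 nt away at 3.19 with exon 5 and 3.04 without it, in the authors' deposited tables. Kif11, Kif23 and Kif22 therefore all had their strongest or only Rbm38 cluster nearer the 3′ end than their strongest Puf60 cluster. Kif15 did not follow this order for both isoforms. Its strongest Rbm38 cluster was 8058 nt from the 3′ end, against 27383 nt for Puf60 with exon 5 and 4008 nt for Puf60 without exon 5.

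Kif18a and Kif18b belong to kinesin-8, whose members limit microtubule length. Kif18a had clusters at 1 place, of Puf60 alone, at 3.58 with exon 5 and 3.14 without it in the authors' deposited tables. Kif18b was enriched for Rbm38 at 3.24, 467 nt from its 3′ end, and for Puf60 with exon 5 at 3.47 and 2.92 per the authors' deposited tables, and had no cluster of Puf60 without exon 5. Kif20b, a cytokinesis motor, had 1 cluster of Puf60 with exon 5 at chr19:34955001-34955050, enriched at 3.85 per the authors' deposited table, with no cluster over it in the other tables. Its 4 Rbm38 clusters and its 3 of Puf60 without exon 5 were not enriched. Kif4, a chromosome-arm kinesin on the X chromosome, had clusters of Puf60 alone. The authors' deposited tables give Kif4 log2 folds of 3.23 with exon 5 and 4.18 without it at chrX:100635751-100635800, and 3.58 and 4.01 at a second place that also lies in the gene Gm52438.

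Kinesin-13 motors take microtubules apart instead of walking. Kif2a, the family member known for pruning axon branches, had 7 enriched of 15 Rbm38 clusters. The 3 Rbm38 clusters 2 to 3.1 kb before the 3′ end of Kif2a had log2 folds of 3.98 to 4.58 per the authors' deposited table, and the one nearest the 3′ end overlaps Dimt1. The 4 clusters of Puf60 without exon 5 in the same stretch of Kif2a lay between -1.91 and -1.35 per the authors' deposited table, and the 2 with exon 5 between -1.15 and 0.23. In this stretch the 2 Puf60 tables held only clusters that were not enriched, while every listed Rbm38 cluster was enriched. Kif2c, which depolymerises microtubules at centromeres, had a single Rbm38 cluster at 3.49, 77 nt from its 3′ end, in the authors' deposited table. Kif26a, a kinesin-11 protein without motor activity, had 2 enriched Rbm38 clusters, the stronger at 3.25 and 272 nt from the 3′ end in the authors' deposited table. The Kif26a clusters of Puf60, at 2 places for the form with exon 5 and at 1 for the form without, were not enriched.

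Kinesin-14 motors walk towards the minus end. Kifc1 and Kifc5b, both on chromosome 17, were treated as near-identical copies, though only the hairpin below was compared between them. How reads that fit both were counted is not given in the sources used here. Their values are therefore uncertain. Each gene had a place with a cluster of all 3 proteins, where the authors' deposited tables give Kifc1 log2 folds of 0.67 for Rbm38, 2.32 for Puf60 with exon 5 and 2.74 for Puf60 without exon 5. Kifc5b at its own place stood at 0.82, 2.32 and 2.71 per the authors' deposited tables. The deposited fold and adjusted p of Puf60 with exon 5 were the same at both places, while the other folds differed. Whether the same reads were counted at both was not tested. The strongest Rbm38 clusters lay elsewhere, both enriched, at 3.44 and 71 nt from the 3′ end of Kifc1, and at 2.80 and 354 nt from that of Kifc5b. The 2 genes each hold a copy of the same microRNA hairpin in RefSeq, identical over its 58 nt. The mature microRNA is printed in lower case with its seed, bases 2 to 8, in capitals, from RefSeq on GRCm38.p6. It lies at chr17:33886708-33886728 on the minus strand in Kifc1 and at chr17:26920967-26920987 on the plus strand in Kifc5b.
mmu-miR-6967-5p: cAGGGAGGgauaaagaccagu
No listed cluster overlapped either hairpin, so the hairpin does not show whether reads at the clusters above fit both genes.

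Cytoplasmic dynein 1 is built on the heavy chain Dync1h1, which holds the motor, with intermediate chains (Dync1i1, Dync1i2) and light intermediate chains (Dync1li1, Dync1li2) that attach cargo adaptors. The 5 genes together had 19 enriched of 106 clusters for Rbm38, 16 of 55 for Puf60 with exon 5 and 17 of 63 for Puf60 without exon 5. In the Rbm38 table this was the lowest enriched share of any family with listed clusters. The heavy chain gene Dync1h1 had the most listed Rbm38 clusters of any motor gene, 81, of which 7 were enriched, and 2 of 31 and 2 of 32 were enriched for Puf60 with and without exon 5. The median log2 fold over the listed clusters of Dync1h1 was -0.56, -0.52 and -0.44 per the authors' deposited tables, and 65 of 81, 24 of 31 and 27 of 32 clusters were below 0. Without Dync1h1, left out after its values were seen, the enriched share of motor gene clusters was 58.5% of 258 for Rbm38, 49.7% of 157 for Puf60 with exon 5 and 44.0% of 182 for Puf60 without exon 5, a direction of change that the choice of this gene fixes.

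Inside Dync1h1 the Puf60 isoforms shared 1 strong cluster. It lay at chr12:110601501-110601600 on the plus strand, 155 nt from the start of the gene, and had log2 folds of 3.17 with exon 5 and 3.27 without it in the authors' deposited tables. The Rbm38 cluster over these bases of Dync1h1 stood at -0.96 per the authors' deposited table and was not enriched. The long noncoding RNA gene Gm35558 also covers this place, on the other strand. The strongest Rbm38 cluster of Dync1h1 lay 17169 nt from its 3′ end, at 3.37 per the authors' deposited table.

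Dync1li2 had enriched Rbm38 and Puf60 clusters in neighbouring stretches, whose bounds were drawn after the values were seen. In its last 2.8 kb, 8 of 9 Rbm38 clusters were enriched, at log2 folds of 1.52 to 2.84 per the authors' deposited table, against 2 of 6 for Puf60 with exon 5 and 1 of 8 for Puf60 without exon 5. From 3 to 8.4 kb before the 3′ end the order turned round. There 0 of 2 Rbm38 clusters were enriched, against 8 of 8 for Puf60 with exon 5, at 1.25 to 5.21, and 6 of 6 for Puf60 without exon 5, at 2.15 to 4.70 per the authors' deposited tables. The strongest of these Dync1li2 clusters, at chr8:104420586-104420785 on the minus strand, had log2 folds of -0.19 for Rbm38, 5.21 for Puf60 with exon 5 and 4.70 for Puf60 without exon 5 per the authors' deposited tables.

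Dync1li1, the other light intermediate chain, had the same order of sites on a smaller scale. Its Rbm38 cluster 213 nt from the 3′ end was enriched at 0.90, where Puf60 with exon 5 had 0.63, not enriched, and its Puf60 cluster 17813 nt away stood at 2.75 with exon 5 and 3.02 without it, in the authors' deposited tables. Rbm38 at that second place in Dync1li1 was at 0.23 and not enriched in the authors' deposited table. Dync1i2, the intermediate chain of most cell types, had its strongest Rbm38 cluster 228 nt from the 3′ end, at 4.08 per the authors' deposited table. The Puf60 clusters over those bases of Dync1i2 came from the form without exon 5 alone, with log2 folds of -0.54, 0.44 and 0.85 per the authors' deposited table, of which the last was enriched. Another Dync1i2 cluster of Rbm38 had a log2 fold of 2.42 and an adjusted p of 1 beside a p of 8.6e-19 per the authors' deposited table. The neuronal intermediate chain Dync1i1 had no listed cluster, and neither had Dync2h1 and Dync2li1 of dynein 2, the motor of cilia.

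Dynein light chains bind the intermediate chains, and the Dynll proteins also act as dimerising hubs for other proteins. The 9 genes had 10 enriched of 17 clusters for Rbm38, 4 of 9 for Puf60 with exon 5 and 4 of 13 for Puf60 without exon 5. Dynll2 held 5 Rbm38 clusters in its last 2 kb, all enriched, with log2 folds of 2.37 to 4.28 per the authors' deposited table. The first 2 of these Rbm38 clusters were wide, at chr11:87979586-87980185 and chr11:87980286-87980935 on the minus strand. Puf60 was enriched in 2 of 4 Dynll2 clusters with exon 5 and 1 of 4 without it over the same 2 kb, at log2 folds no higher than 1.42 and 0.84 per the authors' deposited tables. The 2 kb bound was drawn after the values were seen. Just outside it, 2085 nt from the 3′ end, lay the strongest Puf60 cluster of Dynll2, of the form without exon 5, enriched at 2.96 per the authors' deposited table, which is above the lowest of these Rbm38 folds.

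Dynll1 had an Rbm38 cluster 1450 nt from its 3′ end at a log2 fold of 4.19, where Puf60 with exon 5 stood at -0.12 and Puf60 without exon 5 at -0.65 per the authors' deposited tables. Close by, 1750 nt from the 3′ end of Dynll1, Puf60 with exon 5 had an enriched cluster at 1.81 per the authors' deposited table. Dynlrb1, of the roadblock light chains, had 2 enriched Rbm38 clusters at 2.05 and 2.49, and 2 clusters of Puf60 without exon 5 at -1.64 and -0.93 per the authors' deposited tables. Dynlt1a and Dynlt1c, of the Tctex light chains, had 2 Rbm38 clusters each and none enriched in any table. The Dynlt1 genes were treated as near-identical copies, so their values are uncertain. Dynlt1a and Dynlt1b, which has no assigned strand, each had a cluster at -0.45 for Rbm38, 0.25 with exon 5 and 0.70 without it. Whether the same reads were counted at both was not tested. Dynlt1c had an Rbm38 cluster at a log2 fold of 1.61 with an adjusted p of 1 beside a p of 9.3e-10 per the authors' deposited table.

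Dynactin activates dynein and links it to cargo. Dctn1 is its microtubule-binding arm, Dctn2 a shoulder subunit also called dynamitin, and Dctn3 another shoulder subunit, while Dctn4, Dctn5 and Dctn6 sit at the pointed end. The 6 genes had 18 enriched of 31 clusters for Rbm38, 8 of 15 for Puf60 with exon 5 and 10 of 16 for Puf60 without exon 5. Dctn2 was the member with most, 14 of 26, 3 of 8 and 7 of 12. Between 9 and 11.5 kb before the 3′ end of Dctn2, 9 of 11 Rbm38 clusters were enriched, with log2 folds of 1.21 to 3.32 per the authors' deposited table. Within this run lay the strongest Puf60 cluster of Dctn2, at chr10:127272351-127272450 on the plus strand, where the authors' deposited tables give 2.24 for Rbm38, 4.73 for Puf60 with exon 5 and 5.14 for Puf60 without exon 5.

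Dctn1 had 2 Puf60 clusters and 2 Rbm38 clusters, none at the same place. The stronger Puf60 cluster of Dctn1, at chr6:83188951-83189050 on the plus strand and 11118 nt from the 3′ end, had log2 folds of 5.44 with exon 5 and 5.31 without it in the authors' deposited tables. Its neighbour, 11243 nt from the 3′ end of Dctn1, stood at 3.32 and 3.73 per the authors' deposited tables. The Rbm38 clusters of Dctn1 had log2 folds of 2.52, 143 nt from the 3′ end, and 2.00 at a place that also lies in the noncoding gene Gm15624 per the authors' deposited table. Dctn6 had an Rbm38 cluster at 3.17, 115 nt from the 3′ end, and Puf60 clusters just before it, at 2.57 and 3.21 with exon 5 and 2.90 without it, in the authors' deposited tables. Dctn3 had an Rbm38 cluster at 2.18, 262 nt from the 3′ end, and 1 of Puf60 with exon 5 at 2.96, 562 nt from it, in the authors' deposited tables. Dctn6 and Dctn3 were the dynactin genes in which enriched Puf60 clusters lay close to the 3′ end. Dctn5 had 1 Rbm38 cluster, not enriched, and Dctn4 had none.

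The genes above differ in where Rbm38 and Puf60 sit, and counts over the set give the size of that difference. Of the enriched clusters, 57 of 158 for Rbm38 (36.1%) lay within 2000 nt of the gene's 3′ end, against 8 of 80 for Puf60 with exon 5 (10%) and 7 of 82 for Puf60 without exon 5 (8.54%). All protein-coding genes gave 43.2%, 15.2% and 15.2%, so the motor genes followed the order of the whole tables at somewhat lower shares. At least 1 enriched cluster lay in that window in 26 of 30 motor genes for Rbm38 (86.7%), 6 of 29 for Puf60 with exon 5 (20.7%) and 6 of 25 for Puf60 without exon 5 (24%), beside 72.8%, 29.9% and 30.5% over all protein-coding genes. With genes of annotated strand alone, 39 of 134 enriched clusters lay in that window for Rbm38 (29.1%). The counts were 3 of 58 for Puf60 with exon 5 (5.17%) and 4 of 62 for Puf60 without exon 5 (6.45%). The gene's strongest enriched cluster was in the window in 21 of 30 motor genes for Rbm38 (70%), 4 of 29 for Puf60 with exon 5 (13.8%) and 1 of 25 for Puf60 without exon 5 (4%), beside 64.1%, 18.5% and 18.6% over all protein-coding genes.

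Clusters that were not enriched ran the other way. Within the same window lay 13 of 181 such clusters for Rbm38 (7.18%), 35 of 108 for Puf60 with exon 5 (32.4%) and 44 of 132 for Puf60 without exon 5 (33.3%), with 10.2%, 29.7% and 34.3% over all protein-coding genes. RNA from the ends of motor genes was thus listed in the Puf60 tables, mostly at folds that did not pass the threshold. Kif1b, Kif5c and Klc1 supplied many of the enriched Rbm38 clusters far from the 3′ end. Without these 3 genes the share within 2000 nt was 48.9% of 90 for Rbm38, 11.5% of 61 for Puf60 with exon 5 and 9.23% of 65 for Puf60 without exon 5. The 3 genes were left out after their values were seen, and for Rbm38 this choice fixes the direction of change. Which of these clusters lie in exons, introns or 3′ untranslated regions was not analysed here.

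**Figure D3:**
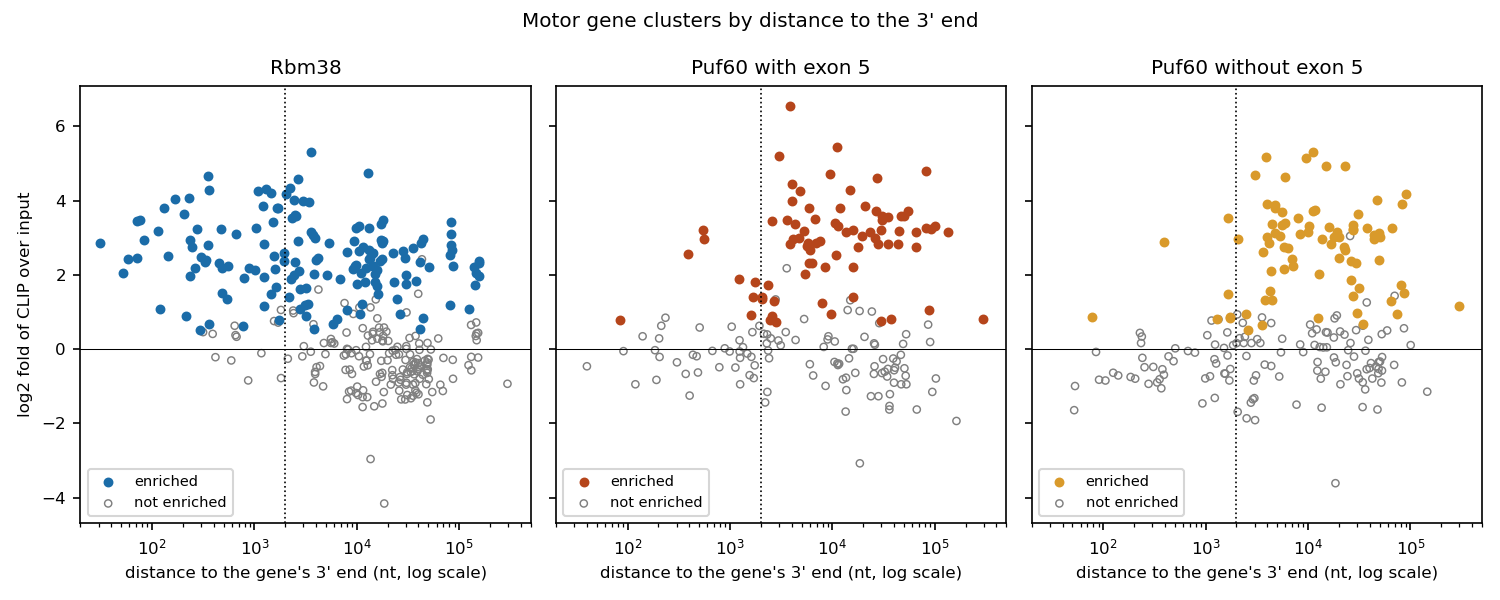
Every listed motor gene cluster by distance to the gene's 3′ end in nt (horizontal, log scale) and log2 fold of CLIP over input (vertical), for Rbm38, Puf60 with exon 5 and Puf60 without exon 5. Filled points are enriched, open points are not, and the dotted line marks 2000 nt. Left of the line Rbm38 has 57 enriched and 13 other clusters, while Puf60 has 8 and 35 with exon 5, and 7 and 44 without it.

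The isoform question was whether Puf60 with exon 5 and Puf60 without exon 5 were found at the same places in motor genes. Of the enriched clusters, 44 of 80 with exon 5 (55%) overlapped an enriched cluster of the form without it by at least 1 nt, and 44 of 82 without exon 5 (53.7%) overlapped one of the form with it. Over all protein-coding genes these shares were 62.1% and 61%. A further 29 clusters with exon 5 (36.3%) and 36 without it (43.9%) had no listed counterpart in the other isoform's table, where no fold can be compared. Among 95 matched pairs of clusters, 43 were enriched in both tables, 7 with exon 5 alone, 2 without exon 5 alone and 43 in neither. The 14139 pairs in all protein-coding genes gave 6466, 728, 653 and 6292. The median difference in log2 fold, with exon 5 minus without it, was 0.16 with an SD of 0.72 over the 95 pairs, beside 0.09 and 0.70 over 14139 pairs in all protein-coding genes. The SD here is the spread over clusters, not over replicates.

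Among pairs enriched with at least 1 isoform, the 6 widest differences in each direction were as follows. In Dync1li2 a cluster 1236 nt from the 3′ end stood at 1.90 with exon 5 and 0.12 without it in the authors' deposited tables, and was enriched in the first alone. In the same gene a cluster 5986 nt from the 3′ end of Dync1li2 went the other way, with 2.66 with exon 5 and 4.63 without it in the authors' deposited tables. Kif1b likewise had clusters at 3.25 with exon 5 and 1.72 without it, 81691 nt from the 3′ end, and at 3.15 with exon 5 and 4.92 without it, 23241 nt from the 3′ end, in the authors' deposited tables. Both directions thus occurred within 1 gene, in Dync1li2 and in Kif1b. Other pairs higher with exon 5 were in Kif24 (2.75 with, 1.29 without), Dctn2 (4.46 with, 3.03 without), Kif1b (6.55 with, 5.17 without) and Kif15 (4.60 with, 3.23 without), all enriched in both of the authors' deposited tables. Others lower with exon 5 were in Kif4 (3.23 with, 4.18 without), Dync1li2 (2.22 with, 3.11 without, and 3.0 with, 3.87 without) and Kif11 (0.05 with, 0.82 without) in the authors' deposited tables. Pairs enriched in neither table included wider ones, such as Kif2a (1.01 with, -0.73 without) and Dync1h1 (-1.21 with, -0.04 without) per the authors' deposited tables. The tables hold no library values, so whether a difference here exceeds the replicate spread cannot be said.

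**Figure D4:**
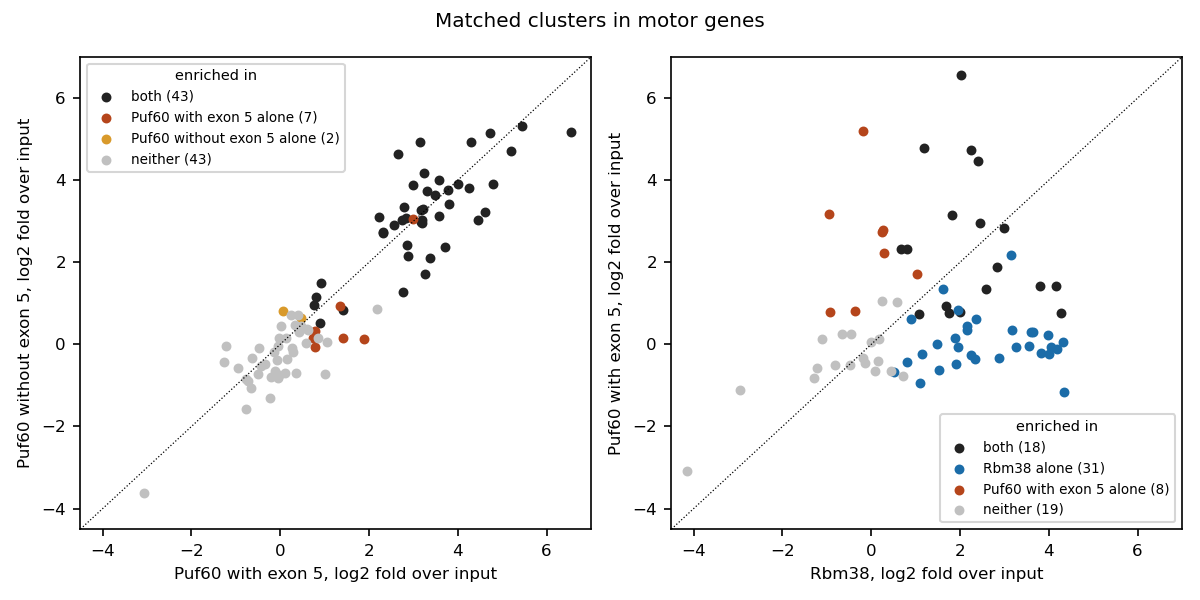
Log2 folds of matched clusters in motor genes. Left, Puf60 with exon 5 (horizontal) against Puf60 without exon 5 (vertical), 95 pairs; right, Rbm38 (horizontal) against Puf60 with exon 5 (vertical), 76 pairs. Colours show in which table a pair is enriched and the dotted line marks equal folds: the isoform pairs run along it, with 43 enriched in both, and the Rbm38 pairs spread off it, with 31 enriched for Rbm38 alone.

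Rbm38 and Puf60 shared fewer places. Of the enriched Rbm38 clusters in motor genes, 19 of 158 (12%) overlapped an enriched cluster of Puf60 with exon 5 and 14 of 158 (8.86%) one of Puf60 without exon 5, where all protein-coding genes gave 10.8% and 10.1%. In the other direction, 20 of 80 enriched clusters of Puf60 with exon 5 (25%) and 15 of 82 of Puf60 without exon 5 (18.3%) overlapped an enriched Rbm38 cluster, beside 20.9% and 18.8%. Among 76 matched pairs of Rbm38 and Puf60 with exon 5, 18 were enriched in both, 31 for Rbm38 alone, 8 for Puf60 alone and 19 in neither. In that order, all protein-coding genes gave 1965, 3934, 1794 and 2556 of 10249 pairs. Among 84 matched pairs of Rbm38 and Puf60 without exon 5 the counts were 12, 40, 10 and 22, beside 1808, 5019, 1931 and 2539 of 11297 pairs in all protein-coding genes. Across the matched clusters Pearson's r of the log2 folds was 0.931 between the isoforms, 0.145 between Rbm38 and Puf60 with exon 5, and -0.04 between Rbm38 and Puf60 without exon 5, given as a description, since clusters share libraries and genes. Over all protein-coding genes r was 0.939, -0.02 and -0.13. At 47 places all 3 tables listed a cluster and these were matched as described for Kif1b. Of these places 10 were enriched in all, 18 for Rbm38 alone, 5 for both Puf60 isoforms alone and 7 in none. No such count over all protein-coding genes is given here. The 10 lay in Kif1b (5), Dctn2 (2), Dynll2, Kifc1 and Kifc5b. Those in Kifc1 and Kifc5b may not be separate places, as their values are uncertain.

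Genes of proteins that work with the motors as adaptors and regulators were counted in the same way. A list of 44 such genes, among them the actin-related core and capping proteins of dynactin, the dynein adaptors and the kinesin cargo adaptors, had 108 enriched of 189 clusters for Rbm38 (57.1%), 46 of 105 for Puf60 with exon 5 (43.8%) and 53 of 145 for Puf60 without exon 5 (36.6%). Over all protein-coding genes these shares were 51.9%, 39.5% and 36.5%. Enriched clusters were found in 28 of 32 listed genes for Rbm38, 17 of 28 for Puf60 with exon 5 and 18 of 29 for Puf60 without exon 5, near the 83.9%, 64.7% and 63% of all listed protein-coding genes. Within 2000 nt of the 3′ end lay 67 of the 108 enriched Rbm38 clusters (62.0%), 14 of 46 with exon 5 (30.4%) and 15 of 53 without it (28.3%), each above the motor genes' share. All protein-coding genes gave 43.2%, 15.2% and 15.2%, so the adaptor genes lay above these shares and the motor genes below them.

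Of the adaptor genes, those with the smallest deposited p-values were named. Hap1, the huntingtin-associated adaptor of dynactin and kinesin-1, was among them for all 3 proteins. The authors' deposited tables give Hap1 enriched clusters at 8 of 20, 9 of 12 and 9 of 13, with log2 folds at the cluster of smallest p of 3.85 for Rbm38, 208 nt from the 3′ end, 2.94 for Puf60 with exon 5 and 3.27 for Puf60 without exon 5. For Rbm38 the others were Clstn1, a kinesin-1 cargo adaptor, at 3.32, Actr1a, the filament subunit of dynactin, at 4.80, and Nudcd3, a dynein chaperone, at 4.45 per the authors' deposited table. For Puf60 with exon 5 they were Capza2 at 3.75 and Capza1 at 5.21, the capping proteins of dynactin's filament, and Hook3, a dynein adaptor, at 3.99 per the authors' deposited table. For Puf60 without exon 5 they were Capza2 at 3.47, Capza1 at 4.71 and Rhot2, a mitochondrial motor adaptor, at 4.73 per the authors' deposited table.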

How the data were processed

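Flag-tagged Rbm38 and Puf60 with or without exon 5 were measured by iCLIP in N2A cells, each in 3 CLIP libraries beside 1 input of matched size, per the labels. The submitters' processing notes name TopHat, edgeR, NCBIM37 and mm10; for versions, read collapsing and cluster calling, the sources used here give nothing. Each cluster has a deposited log2 fold, p-value and adjusted p-value, per the file headers; the tables hold 0 further value columns. The deposited log2 fold changes and p-values were used unchanged.

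Python 3.11.15 with pandas 2.3.3, numpy 2.4.6 and matplotlib 3.10.9 was used. Cluster starts lie on a 50 nt grid with an offset of 0, read as plus, or 35, read as minus; over 3689 protein-coding genes the strand so inferred matched the annotated one in 95.5%. Gene strands came from the RefSeq promoter table (GRCm38.p6) for 51 members and from at least 3 clusters with at least 80% of 1 offset for 6, and 11 had none. Coordinates are 1-based on mm10. The assignment to genes and strands was tested on simulated data.

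The members and all gene lists were chosen with earlier results of these data known. Named per table were the 8 members of highest fold, the 6 with most enriched clusters and up to 3 with most clusters but none enriched, the 6 widest isoform differences each way among pairs enriched in at least 1 isoform (a limit added to the rule afterwards), 4 adaptor genes by smallest p, and dynein, dynactin and kinesin-1 members. The other members described, and the bounds of stretches within genes, were chosen after the values were seen. Planned tests on counts per library and searches for sequence motifs in clusters were not run, since library values and a genome were not used here. Alternatives covered the thresholds, windows, overlap and strand rules. 1 marker gene is not reported here.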

Additional observations from a re-analysis of the deposited data

How the results depend on the processing

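No paired analysis was possible because the deposited tables hold 1 comparison per protein and no values per library, and for the same reason no replicate could be left out. Of 70 alternative values, 55 stayed within 1.5 times of the reported count (for the median isoform difference, within its SD) and 15 did not. Asking for at least 2 enriched clusters left 18 motor genes for Puf60 with exon 5 (reported 29) and 15 for Puf60 without exon 5 (reported 25). Enriched clusters near the 3′ end numbered 4 for Puf60 with exon 5 at 1000 nt, 21 at 4000 nt and 3 with annotated strands alone (reported 8), and 2, 15 and 4 for Puf60 without exon 5 (reported 7). With an overlap of 50% of both clusters, 12 clusters of Puf60 with exon 5 overlapped Rbm38 (reported 20), 9 of Puf60 without exon 5 overlapped Rbm38 (reported 15), 12 Rbm38 clusters overlapped Puf60 with exon 5 (reported 19), and 9 overlapped Puf60 without exon 5 (reported 14). Counting any listed counterpart gave 25 clusters of Puf60 without exon 5 with an Rbm38 counterpart, 49 Rbm38 clusters with one of Puf60 with exon 5 and 54 with one of Puf60 without exon 5. Rbm38 had 38 enriched clusters at 1000 nt, 85 at 4000 nt and 39 with annotated strands alone (reported 57), above either Puf60 form in each. The alternatives beyond the planned ones were chosen after seeing the data. Depth is unknown, so a gene with no listed cluster cannot be told apart from one covered too thinly, and p and adjusted p can part, as in Kif14.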

Other observations

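Kif24, a kinesin-13 of the centriole, had 9 clusters on the strand opposite its annotated one, 7 of them enriched, against 1 place on its own strand. The strongest, at chr4:41454901-41455050 on the plus strand, had log2 folds of 2.39 for Rbm38, 4.93 for Puf60 with exon 5 and 4.41 for Puf60 without exon 5 per the authors' deposited tables. The cluster on the annotated strand of Kif24, at chr4:41454986-41455035, lies opposite it at 2.75 with exon 5 and 1.29 without it in the authors' deposited tables. Kif24 was the 1 member of 23 checked whose strand from clusters differed from the annotation. Dynlt1a had 20 clusters on the opposite strand, 6 of them enriched, all inside the gene Tmem181a.

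Kif26b had 1 place with clusters, inside the small nuclear RNA gene Gm24405, at log2 folds of -0.93 for Rbm38, 0.80 for Puf60 with exon 5 and 1.15 for Puf60 without exon 5 per the authors' deposited tables, the Puf60 values being enriched.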
